A study of Mus musculus with 12 samples.

Results

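Transcript levels of 40 cell cycle and mitosis genes were measured by RNA sequencing of mouse hepatocytes that had been separated by their lipid content. The genes were chosen by name, as a fixed list of cyclins, cyclin-dependent kinases (CDKs), CDK inhibitors, E2F factors, replication genes and mitotic genes, and each of the 40 names was found once among the 52636 genes of the deposited table. Of these, 38 reached 10 reads per 20 M (the unit is explained below) in 3 or more libraries and were tested, against 16563 genes in the whole table. Aurkb and Bub1 did not pass.

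The hepatocytes came from steatotic livers of 6 mice, 3 wild type (WT) and 3 with a knockout of Ptprk (KO), which encodes protein tyrosine phosphatase receptor kappa. Viable cells were separated by Percoll gradient and differential centrifugation, steps that were also meant to leave dead hepatocytes and non-parenchymal cells behind. PolyA RNA of a fat-poor (low-fat) and a fat-rich (high-fat) cell fraction of each liver was sequenced, so that 12 libraries form 4 groups of 3, given by genotype and fraction. The labels name the mice WT1, WT5 and WT6 (replicates 1 to 3) and KO2, KO4 and KO6. All groups share the steatotic liver, and no lean liver is among them. Diet, age, sex and strain, and whether the knockout is limited to some cells, are not given in the sources used here.

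Most hepatocytes of an adult liver are out of the cell cycle and enter it after loss of tissue. D-type cyclins with Cdk4 or Cdk6 phosphorylate the retinoblastoma protein (Rb1) and so free E2F factors, which turn on the genes of DNA synthesis. Cyclin E and cyclin A with Cdk2 drive S phase, and cyclin B with Cdk1 drives mitosis, whose genes are turned on late by Foxm1 and the MuvB complex. Many mouse hepatocytes are polyploid, a state reached when cells copy DNA but do not divide, and the repressors E2f7 and E2f8 are known to take part in it.

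Values are given as reads per 20 M (mega), the scale to which the authors brought each library. Estimated depth was 15.1 to 25.0 M reads a library, and a level of 3 reads corresponds to 2.4 to 3.98 reads per 20 M, a floor that covers counting error only. Ptprk itself lay between 2174 and 2883 reads per 20 M in the 6 WT libraries and between 1117 and 1364 in the 6 KO libraries, a KO to WT fold of 0.457 for low-fat and 0.502 for high-fat cells (limma adjusted p = 0.00131 and 0.00506). The summed level of 10 hepatocyte markers overlapped between the 4 groups, at 647575 to 744118 reads per 20 M. Over all 6 mice, 8 of these 10 had lower estimates in high-fat libraries, at a median log2 fold change of -0.15. Limma without a term for the mouse called 1 of them higher, and with such a term 1 was called higher and 1 lower. Cyp2e1 had log2 fold changes of 0.75 in WT and 0.72 in KO, higher in high-fat libraries. The marker sums of Kupffer, stellate and sinusoidal endothelial cells were separate between fractions. The 9 Kupffer cell and macrophage markers summed to 470 to 1341 in low-fat and 2109 to 11426 in high-fat libraries. The 8 stellate cell markers summed to 133 to 660 and 2032 to 3602. For the 9 sinusoidal endothelial markers it was 1155 to 2820 and 4876 to 15333. The sums of biliary, erythroid, lymphocyte, and neutrophil and monocyte markers overlapped between fractions. Biliary markers summed to 749 to 977 in low-fat and 595 to 802 in high-fat libraries, and erythroid markers to 2676 to 3983 and 2106 to 2924. The high-fat libraries of replicate 1 stood apart in both genotypes, at 68.3 (WT) and 57.2 (KO) on the first principal component, where the other 4 high-fat libraries lay between 2.3 and 39.3, and they held the highest Kupffer and endothelial sums.

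Levels between genes were compared per kilobase of exon. Of the roles, the mitotic genes had a median percentile of 7.38 among the tested genes, the replication genes 30.3, the E2F factors 32.6, and the G1 genes spread from percentile 10.4 to 90.8. Only 8 of the 38 members tested lay above the median gene of all tested genes, which had 69.5 reads per 20 M per kb. Cdk4, the kinase of the D cyclins, was the highest, at a median of 702 reads per 20 M per kb over the 12 libraries (range 630 to 789, percentile 90.8 of the tested genes). Pcna, the sliding clamp of the replication fork, followed at 178 (129 to 204), and below Cdk4 the ranges of neighbouring genes overlapped. Next came the inhibitor Cdkn1b (p27) at 140, the inhibitor Cdkn1a (p21) at 112 and Trp53 (p53) at 107 reads per 20 M per kb. The D cyclins Ccnd3 and Ccnd1 lay at 86.7 and 67.1 and Ccnd2 at 10.4, with the ranges of Ccnd3 and Ccnd1 overlapping.

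All 12 mitotic members that were tested lay below the median gene, and 10 of them below the 20th percentile. Aurka, a kinase of the spindle poles, was the highest of them at 25.5 reads per 20 M per kb, and Ccna2 (cyclin A) had 18.1. Mki67, the usual marker of cycling cells, had 3.98, Top2a, the topoisomerase that untangles chromosomes, 2.61, Cdk1 2.03 and Ccnb1 (cyclin B) 1.07. In reads per 20 M, Cdk1 lay between 7 and 22 and Ccnb1 between 1 and 14 in the 12 libraries. Bub1, a kinase of the spindle checkpoint, had 0 to 8 reads per 20 M and was at or under its library's floor of 3 reads in 8 libraries, Plk1, a mitotic kinase, in 4 and E2f7 in 3. Among the E2F factors the order was E2f8, E2f1, E2f7, at 44.8, 27.3 and 0.389 reads per 20 M per kb, and the ranges of E2f8 (19.8 to 71.3) and E2f1 (23.5 to 31.4) overlapped.

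**Figure D1:**
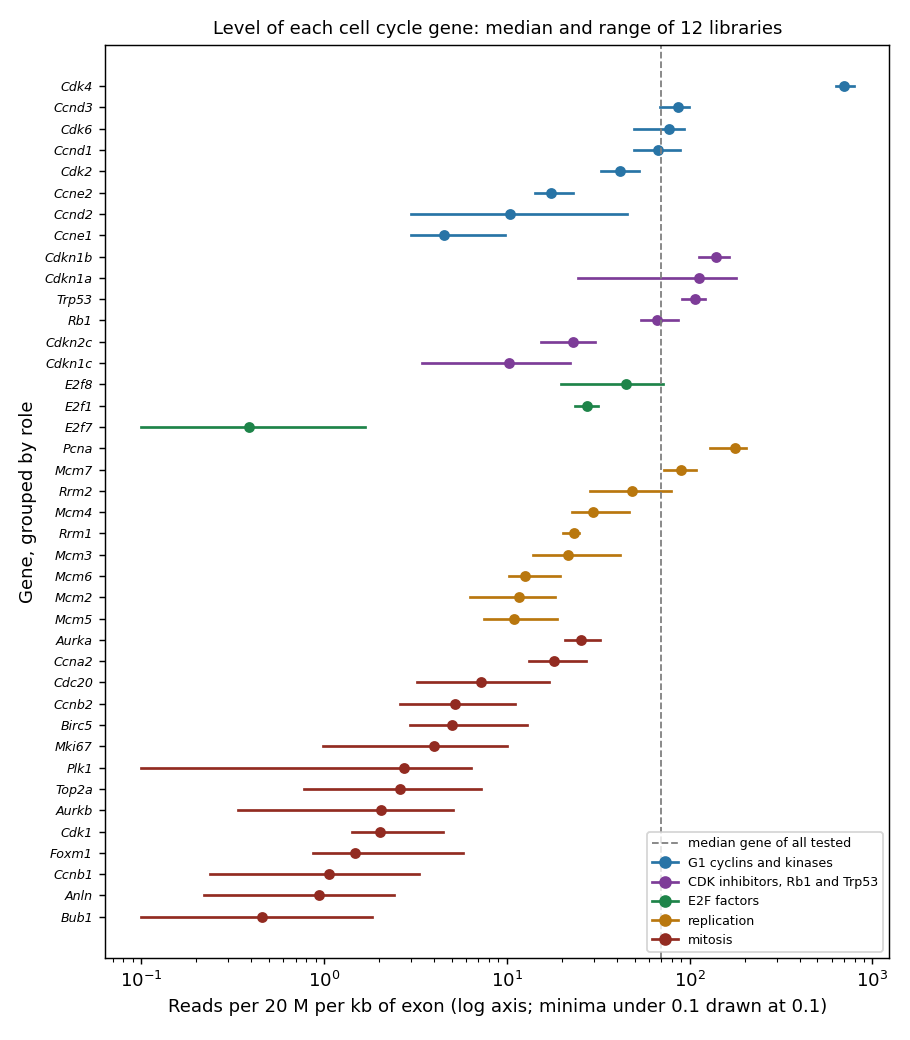
Median (point) and range (line) of reads per 20 M per kb of exon over the 12 libraries, on a log axis, for each of the 40 genes grouped by role; the dashed line is the median gene of all tested genes (69.5). Cdk4 stands at the right at 702, and all mitotic genes lie left of the dashed line.

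The promoters of these genes are known for shared elements, which are shown here for 5 members that hold them. No result on transcript levels below rests on these elements. The stretches are the 180 bases before the RefSeq start (GRCm38.p6, gene strand, 5′ to 3′). Capitals mark the letters TTTGAA, the cell cycle genes homology region (CHR) bound by MuvB complexes, and the letters TTTCGCGC, TTTGGCGC, TTTCCCGC or TTTGCCGC, which resemble E2F sites, on either strand.
Cdk1, chr10:69352913-69353092, minus strand: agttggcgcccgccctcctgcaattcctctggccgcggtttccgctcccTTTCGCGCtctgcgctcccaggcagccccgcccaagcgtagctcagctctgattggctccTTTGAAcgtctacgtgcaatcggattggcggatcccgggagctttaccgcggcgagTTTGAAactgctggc
Mki67, chr7:135716380-135716559, minus strand: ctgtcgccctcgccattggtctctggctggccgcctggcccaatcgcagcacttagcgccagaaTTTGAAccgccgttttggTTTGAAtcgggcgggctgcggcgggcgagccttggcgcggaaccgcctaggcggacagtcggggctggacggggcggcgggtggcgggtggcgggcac
Top2a, chr11:99024190-99024369, minus strand: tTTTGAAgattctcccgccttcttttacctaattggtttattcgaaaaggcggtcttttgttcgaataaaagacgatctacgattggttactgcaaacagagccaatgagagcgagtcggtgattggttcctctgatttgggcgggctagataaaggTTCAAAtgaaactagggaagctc
E2f8, chr7:48881597-48881776, minus strand: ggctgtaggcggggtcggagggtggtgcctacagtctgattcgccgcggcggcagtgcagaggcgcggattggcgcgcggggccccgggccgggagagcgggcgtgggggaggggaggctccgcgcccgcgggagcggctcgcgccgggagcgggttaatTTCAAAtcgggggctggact
Mcm6, chr1:128359706-128359885, minus strand: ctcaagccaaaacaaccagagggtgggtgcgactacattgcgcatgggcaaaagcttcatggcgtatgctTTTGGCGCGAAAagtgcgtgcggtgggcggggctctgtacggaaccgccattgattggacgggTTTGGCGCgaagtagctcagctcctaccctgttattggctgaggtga

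Cdk1 held both kinds of element: the E2F letters began 131 bases before the start, and TTTGAA 71 and 15 bases before it. Mki67 held TTTGAA at 116 and 98 bases, Top2a at 179 and, on the other strand, 23 bases, and E2f8 on the other strand at 20 bases before the start. Mcm6, a subunit of the replicative helicase, held 3 E2F matches, of which those at 110 and 106 bases overlap on opposite strands and the other lies at 47 bases. A promoter window of 250 bases before to 50 after the start was given for 31 of the 40 members. TTTGAA was found in 10 of 31 (32.3%), against 20.2% of all 27025 genes with a window, in Anln, Aurka, Ccnb2, Cdc20, Cdk1, Mki67, Plk1 and Top2a of the mitotic genes and in E2f8 and Mcm2. An E2F match was found in 7 of 31 (22.6%), against 2.6% of all genes: Cdk1, Cdk2, E2f7, Mcm3, Mcm5, Mcm6 and Mcm7. The letters CCAAT, on either strand, were found in 24 of 31 (77.4%), against 41.1%. Among tested genes with a window the shares were 14.8% for TTTGAA, 4.36% for an E2F match and 42.5% for CCAAT. A match describes the letters of a window and is no measure of binding.

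High-fat and low-fat hepatocytes were compared to ask which cell cycle genes differ with lipid load within the same liver. Over all 6 mice, Ccnd2 (cyclin D2) rose 2.83-fold in the high-fat fraction (on the log2(value + 2) scale of the fit), and it was the only 1 of the 38 members called by limma without a term for the mouse, where 5.77% of all tested genes were called. With the mouse as a replicate block, 4 of 38 members were called, where 11% of all tested genes were: Ccnd2, Cdk6 and E2f8 rose and Rrm2, the small subunit of ribonucleotide reductase, fell. Of the 38 members, 7 had passed the value filter only through high-fat libraries (E2f7, Cdk1, Ccnb1, Ccnb2, Plk1, Foxm1 and Anln), as had 6.79% of all tested genes, so that their higher level there follows in part from the filter. Without genes that passed through 1 fraction only, the members' median log2 fold change was 0.05, against -0.04 over all tested genes that remained, members included. Because libraries hold equal totals from bulk cell fractions, more cells of a type and more RNA per cell cannot be told apart.

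Ccnd2 had 90, 75 and 62 reads per 20 M in WT low-fat replicates 1 to 3 and 425, 184 and 106 in the high-fat replicates. In KO it had 28, 88 and 47 in the low-fat and 221, 155 and 125 in the high-fat replicates. Each high-fat library lay above each low-fat library, in WT and in KO, and the highest high-fat library was replicate 1 in both. Over all mice it rose by 1.5 on the log2 scale, with an SE of 0.32 (limma adjusted p = 0.0196), and with the block it had an adjusted p of 0.0129. The rise within a mouse was 2.12, 1.31 and 0.65 on the log2 scale in WT replicates 1 to 3 and 2.73, 0.79 and 1.39 in KO, and a two-sided exact test of sign changes over the 6 mice gave p = 0.0312, the smallest it can give. The call was lost without 1 library or 1 mouse: without the KO high-fat library of replicate 1 the adjusted p was 0.0504 at a log2 fold change of 1.43, and with the block but without WT replicate 2 it was 0.0591 at 1.51. Without the high-fat libraries of replicate 1 in both genotypes the log2 fold change was 1.17 (adjusted p = 0.0647), and with the block and without both mice it was 1.05 (adjusted p = 0.00488).

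Markers of Kupffer, stellate and endothelial cells moved with Ccnd2, while those of biliary and erythroid cells had negative median log2 fold changes, -0.24 and -1.26. Of the marker lists, 8 of 9 Kupffer cell, 8 of 8 stellate cell and 9 of 9 endothelial markers were called higher in the high-fat fraction without the block, at median log2 fold changes of 2.25, 2.58 and 1.76. The libraries with the highest Kupffer and endothelial sums, the high-fat replicates 1, also had the highest Ccnd2 of their genotype. The part of these cells in the Ccnd2 result was not tested. Of the lymphocyte markers 1 of 9 passed the value filter, and their sum lay between 4 and 124 reads per 20 M in the 12 libraries.

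**Figure D2:**
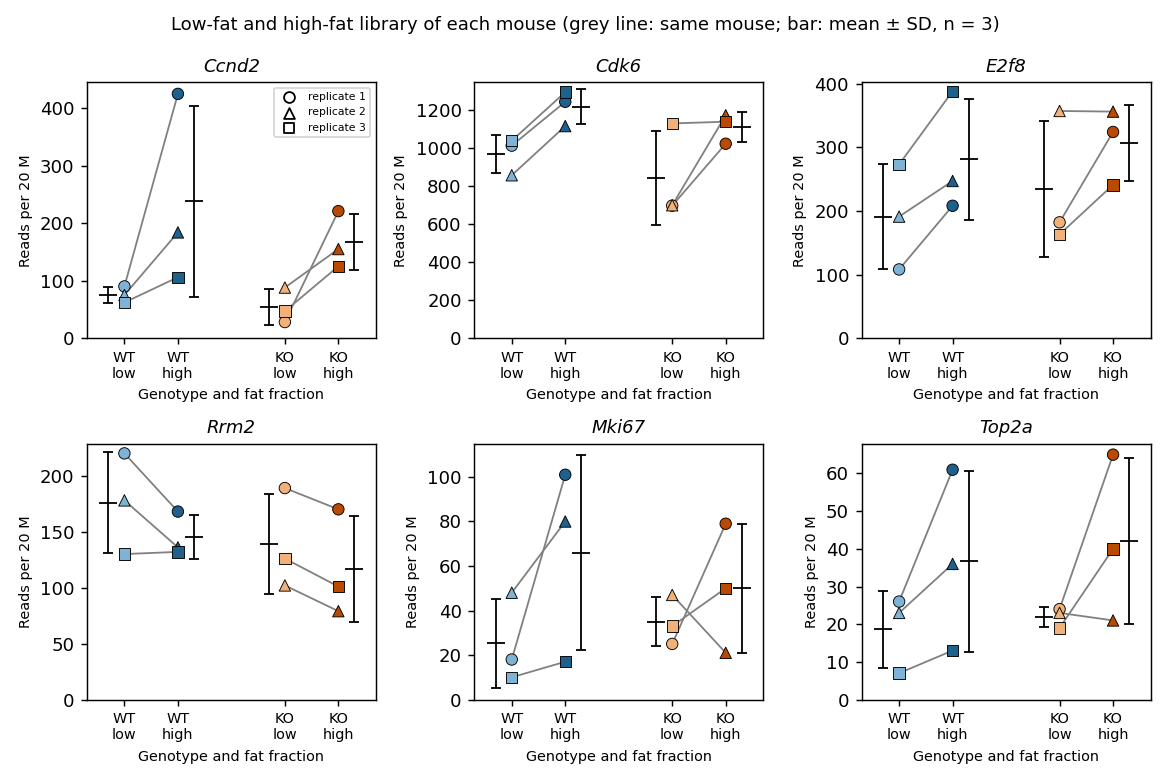
Reads per 20 M of 6 members in the low-fat and high-fat library of each mouse; grey lines join libraries of the same mouse, symbols mark the replicate number, and bars give the mean ± SD of n = 3. Every line of Ccnd2 and Cdk6 rises, and Mki67 and Top2a rise in 5 of 6 mice.

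The other G1 genes had smaller differences between fractions. Cdk6, the other kinase of the D cyclins, had 1014, 858 and 1040 reads per 20 M in WT low-fat and 1245, 1117 and 1296 in WT high-fat replicates, which did not overlap. The KO values were 698, 700 and 1131 in the low-fat and 1024, 1174 and 1140 in the high-fat replicates, where the third low-fat library reached the high-fat range. Its log2 fold change over all mice was 0.33 (limma adjusted p = 0.198, and 0.047 with the block), and 6 of 6 mice had the higher level in their high-fat library. With the block its adjusted p was 0.0676 when the scaling factors were taken over all genes, and 0.0631 to 0.155 when WT replicate 1, 2 or 3 or KO replicate 1 was left out. Ccnd1 (cyclin D1), the D cyclin most often followed in regenerating liver, had 343, 310 and 242 reads per 20 M in WT low-fat and 419, 273 and 234 in WT high-fat replicates. The KO values were 322, 418 and 278 in low-fat and 351, 324 and 246 in high-fat replicates, so that fractions overlapped in both genotypes. The change was -0.11 on the log2 scale, with a 95% interval of -0.44 to 0.21. Ccne1 (cyclin E1), at 8 to 26 reads per 20 M in the 12 libraries, had the second lowest change of the members, -0.25 (adjusted p = 0.729). The intervals for Ccnd3, -0.19 to 0.13, and Cdk2, -0.09 to 0.24, were narrower.

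E2f8, a repressor among the E2F factors, had 108, 191 and 273 reads per 20 M in WT low-fat and 208, 247 and 388 in WT high-fat replicates 1 to 3. KO mice had 182, 357 and 163 in low-fat and 324, 356 and 241 in high-fat replicates. The groups overlapped, but within a mouse the high-fat library was higher in 5 of 6, and KO replicate 2 was level. The log2 fold change was 0.48 with an SE of 0.26 (limma adjusted p = 0.374) without the block and an SE of 0.11 (adjusted p = 0.0304) with it. The call with the block held without KO replicate 2 (adjusted p = 0.0115) and was lost without any other single mouse, at adjusted p = 0.0518 to 0.103. E2f7, its close relative, was 0 to 5 reads per 20 M in low-fat and 2 to 15 in high-fat libraries. It was among the 7 that reached the value filter only through high-fat libraries, so its log2 fold change of 0.99 is a description. It did not pass (adjusted p = 0.274, and 0.103 with the block), and at such low values it moved with the pseudocount, from 0.46 at 10 to 1.41 at 0.5. E2f1, an activator, had 74 to 93 reads per 20 M in low-fat and 85 to 99 in high-fat libraries.

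Among the replication genes, Rrm2 had 220, 178 and 130 reads per 20 M in WT low-fat and 168, 136 and 132 in WT high-fat replicates. KO mice had 189, 102 and 126 in low-fat and 170, 79 and 101 in high-fat replicates. After scaling between libraries 6 of 6 mice had the lower level in their high-fat library, and on the deposited values it was higher in 1, WT replicate 3. This change was -0.32 on the log2 scale, with an SE of 0.21 (limma adjusted p = 0.463), and with the block the SE was 0.083 and the adjusted p 0.0488. With the block and median-of-ratios scaling its adjusted p was 0.0588, and with the deposited scaling alone 0.16. Without any single mouse it was not called with the block either, at 0.0643 to 0.272. Rrm1, the large subunit of the same enzyme, lay between 223 and 274 reads per 20 M in the 12 libraries. The MCM helicase subunits Mcm3, Mcm5 and Mcm6 had their higher level in high-fat cells of 6 of 6 mice under each scaling tried, and none was called. In some mice the 2 libraries were about level. On the log2 scale the difference of Mcm6 rounded to 0 in WT replicate 3 and was 0.04 in KO replicate 2. That of Mcm3 was 0.07 in KO replicate 3.

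Mcm3 had 80, 67 and 73 reads per 20 M in WT low-fat and 156, 81 and 85 in WT high-fat replicates, and 52, 67 and 78 in KO low-fat and 125, 91 and 81 in KO high-fat replicates. On these deposited values the fractions did not overlap, while after rescaling they overlapped in WT. The largest differences were those of replicate 1, and the log2 fold change was 0.47 (limma adjusted p = 0.169, and 0.0981 with the block). In all, 6 of 38 members were higher in the high-fat library of every mouse (Ccnd2, Cdk6, Mcm3, Mcm5, Mcm6 and Cdk1) and 2 were lower (Rrm2 and Aurka), against 9.96% and 11.6% of all tested genes. Cdk1 was 1 of the 7 that had passed the filter only through high-fat libraries, and on the deposited values it was higher in 5 of 6 mice, and Aurka was higher in 3 of 6.

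The mitotic genes were low, and none was called. Mki67 had 18, 48 and 10 reads per 20 M in WT low-fat and 101, 80 and 17 in WT high-fat replicates. In KO it had 25, 47 and 33 in low-fat and 79, 21 and 50 in high-fat replicates. In 5 of 6 mice the high-fat library had more, in KO replicate 2 it had less, and the groups overlapped. The difference was 0.75 on the log2 scale, with a 95% interval of -0.29 to 1.79 (limma adjusted p = 0.452, and 0.206 with the block). Top2a followed the same mice, with 26, 23 and 7 reads per 20 M in WT low-fat and 61, 36 and 13 in WT high-fat replicates, and 24, 23 and 19 in KO low-fat and 65, 21 and 40 in KO high-fat replicates. The difference was 0.74 on the log2 scale (adjusted p = 0.359, and 0.0657 with the block). Both moved with single mice. With the block and without KO replicate 2, Top2a was 0.95 (adjusted p = 0.0198) and Mki67 1.10 (adjusted p = 0.0413), and without KO replicate 1 they were 0.62 (0.137) and 0.47 (0.422). Without the high-fat libraries of replicate 1 in both genotypes and without the block, Top2a was 0.37 (0.726) and Mki67 0.36 (0.797). These 2 libraries, with the highest Kupffer and endothelial marker sums, also had the highest Mki67 and Top2a of their genotype. In KO replicate 2 both genes were lower in the high-fat library, while the Kupffer, stellate and endothelial sums were higher there. The part of these cells in the Mki67 and Top2a differences was not tested.

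Foxm1, the transcription factor of late cell cycle genes, had 8, 5 and 6 reads per 20 M in WT low-fat, 33, 16 and 6 in WT high-fat, 6, 6 and 9 in KO low-fat and 15, 10 and 10 in KO high-fat replicates. All 5 libraries in which it reached 10 were high-fat, so that its log2 fold change of 0.78 (adjusted p = 0.23) was drawn from a gene that passed the value filter only there. Aurka, with a log2 fold change of -0.14, had the third lowest, from 53 to 82 reads per 20 M in low-fat and 54 to 74 in high-fat libraries. Summed over the 14 mitotic genes, WT low-fat replicates 1 to 3 had 287, 332 and 170 reads per 20 M and WT high-fat replicates 516, 400 and 227. KO low-fat replicates had 267, 288 and 272, and KO high-fat replicates 429, 227 and 298. The 3 highest sums were high-fat libraries, the lowest was WT low-fat replicate 3, and KO replicate 2 was the only mouse whose high-fat sum was below its low-fat sum.

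**Figure D3:**
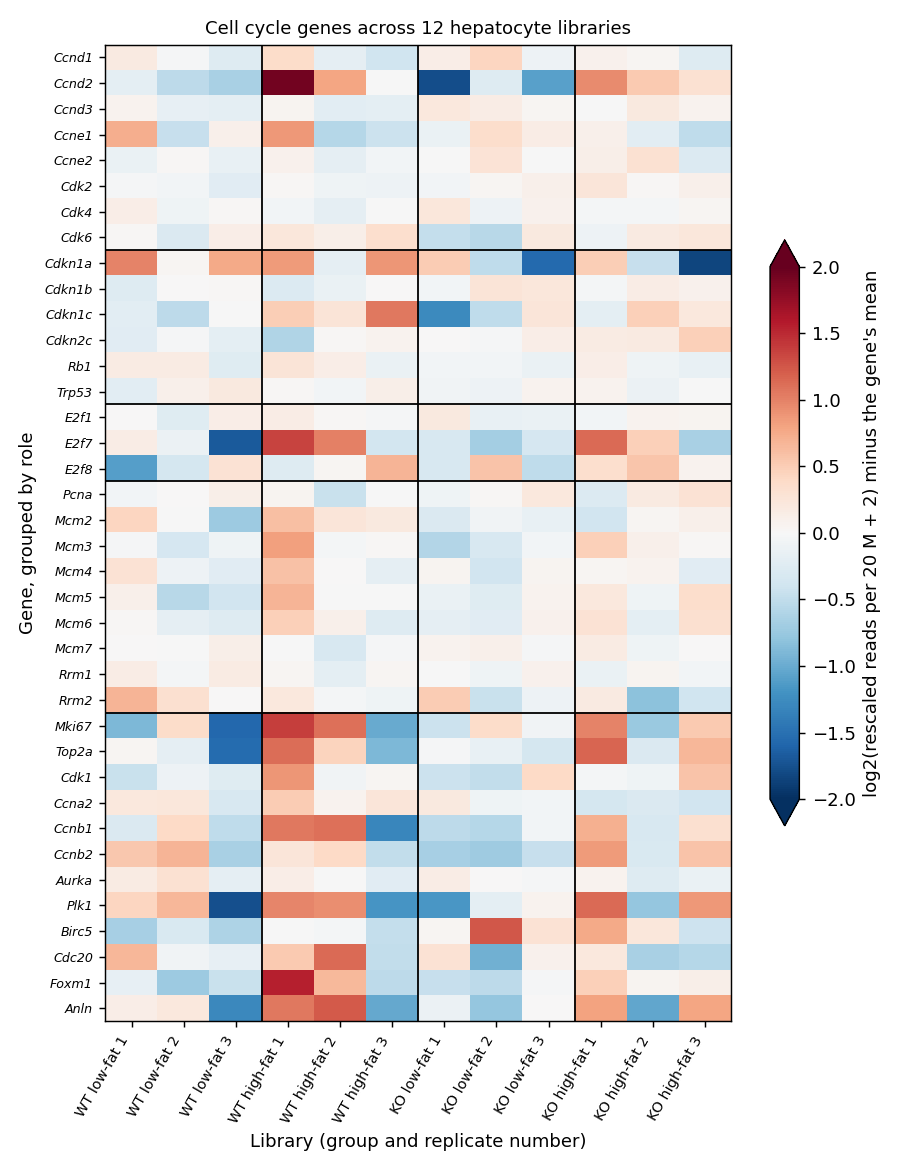
log2(rescaled reads per 20 M + 2) of each of the 38 tested genes (rows, grouped by role) in each library (columns) minus the gene's mean; red is above and blue below the mean. Among the mitotic genes at the bottom, WT high-fat replicates 1 and 2 and KO high-fat replicate 1 are mostly red, and WT replicate 3 is mostly blue in both fractions.

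Of the CDK inhibitors, Cdkn1c (p57) had the largest difference between fractions, which did not pass the test. It had 17, 14 and 19 reads per 20 M in WT low-fat and 31, 25 and 45 in WT high-fat replicates, which did not overlap, and 7, 14 and 24 in KO low-fat and 19, 30 and 23 in KO high-fat replicates, which did. Its log2 fold change was 0.76 (limma adjusted p = 0.149, and 0.0558 with the block). Cdkn1a (p21), Cdkn1b (p27) and Cdkn2c (p18) had log2 fold changes of -0.08, -0.07 and 0.11. For Cdkn1a the interval was -1.01 to 0.86 without the block and -0.24 to 0.09 with it. Rb1 lay between 327 and 522 and Trp53 between 367 and 495 reads per 20 M in the 12 libraries.

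Within each genotype alone no member was called, with or without the block. In WT, 2 of 38 members had an unadjusted limma p under 0.05 without the block (Ccnd2 and Cdkn1c), where 0% of all genes were called and 11.2% had such a p. In KO it was 1 of 38 (Ccnd2), where 0.839% of all genes were called and 8.96% had such a p. With the block 10 and 6 members had an unadjusted p under 0.05, against 19.4% and 14.8% of all genes. After rescaling, low-fat and high-fat libraries were fully separate for 4 of 38 members in WT (Ccnd2, Cdk6, Cdkn1c and Cdk1), against 17.4% of all genes, and for 6 of 38 in KO (Ccnd2, Cdkn2c, Mcm3, Ccna2, Ccnb2 and Foxm1), against 13.4%. Ccna2 was lower in the KO high-fat libraries, and the other members named were higher. Cdk1, Ccnb2 and Foxm1 had passed the value filter only through high-fat libraries, so their separation follows in part from the filter. The rise of Ccnd2 was 1.36 in WT and 1.64 in KO on the log2 scale (limma adjusted p = 0.262 and 0.144 without and 0.123 and 0.0736 with the block). The interaction of genotype and fat fraction called 0 of 38 members and 0% of all genes. Its interval for Ccnd2 was -1.14 to 1.70. The 1 member with an unadjusted interaction p under 0.05, against 0.145% of all genes, was Ccna2, at -0.59 (limma adjusted p = 1).

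**Figure D4:**
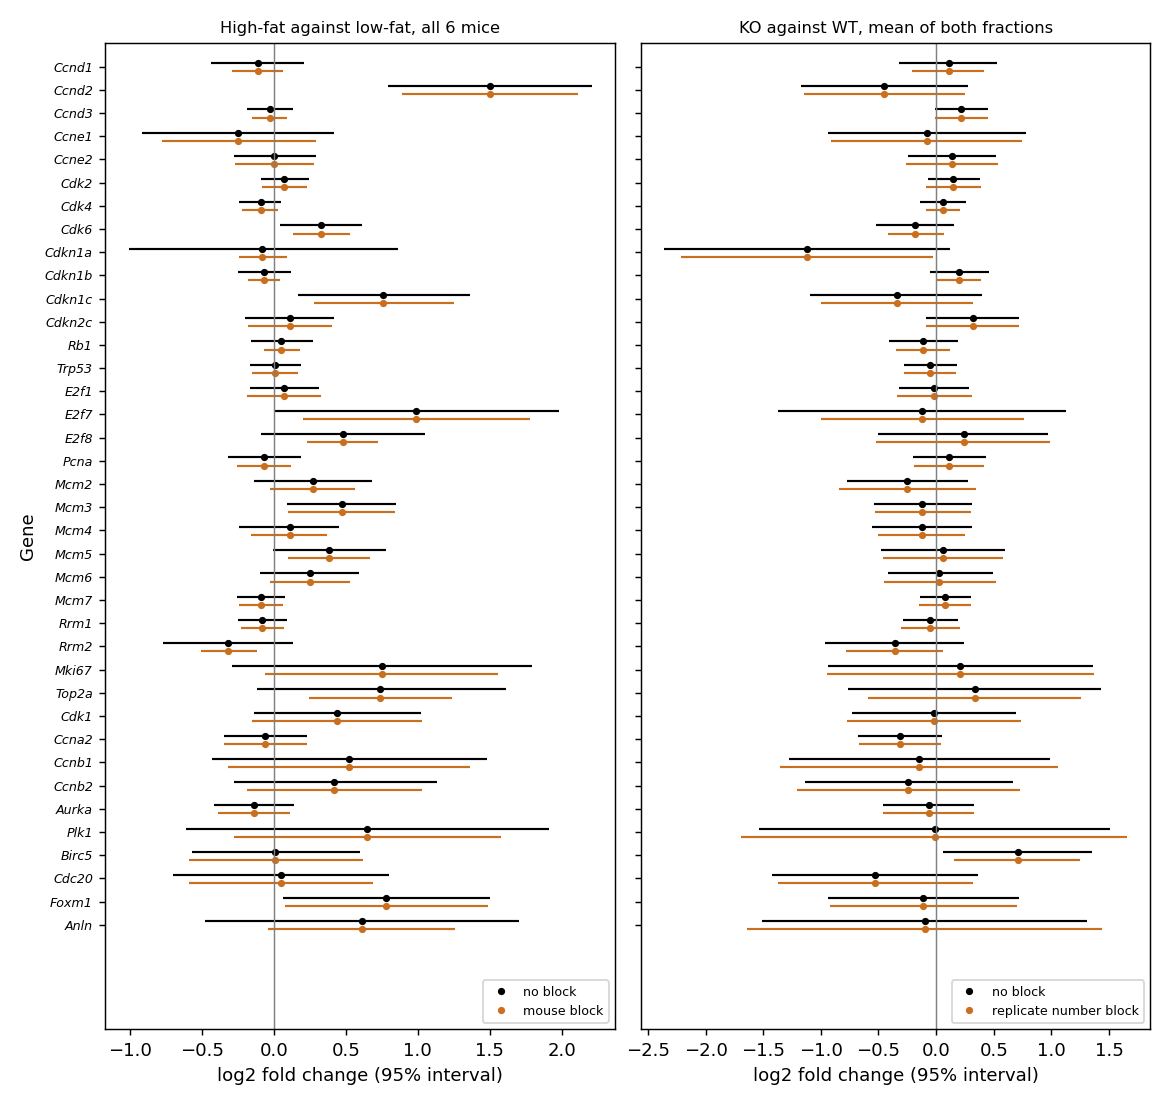
log2 fold change of each tested gene with its 95% interval, for high-fat against low-fat over all 6 mice (left) and KO against WT on the mean of both fractions of each mouse (right); black is the fit without and orange the fit with the block. On the left the interval of Ccnd2 (0.79 to 2.21) lies farthest from 0, and on the right Cdkn1a has the lowest estimate, -1.12.

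KO and WT hepatocytes were compared to ask whether loss of Ptprk shifts cell cycle genes. No member was called in the low-fat libraries, in the high-fat libraries or on the mean of both fractions of each mouse, where 0.00604% of all genes, Ptprk alone, were called in each. On mouse means with the block Ptprk was not called (adjusted p = 0.109), so that 0% of all genes were. With the replicate number as a block none was called either. An unadjusted limma p under 0.05 was found for 1 of 38 members in low-fat libraries (Birc5, against 1.73% of all genes), for 2 in high-fat libraries (Cdkn2c and Ccna2, against 2.02%) and for 1 on mouse means (Birc5, against 2.19%). With the block it was found for 4 of 38 in low-fat libraries (Ccnd3, Cdkn1a, Cdkn1b and Birc5, against 3.24%), for 4 in high-fat libraries (Cdkn1a, Cdkn1b, Cdkn2c and Ccna2, against 3.93%) and for 3 on mouse means (Cdkn1a, Cdkn1b and Birc5, against 3.98%). The members' median log2 fold change on mouse means was -0.05, against -0.01 over all tested genes.

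Cdkn1a, the p53 target that stops the cycle in G1, had the lowest estimate. It had 639, 348 and 523 reads per 20 M in WT low-fat and 624, 293 and 613 in WT high-fat replicates. In KO it had 447, 232 and 107 in low-fat and 499, 242 and 87 in high-fat replicates. Replicate 1 of KO lay above replicate 2 of WT, so the genotypes overlapped, and the lowest values were those of KO replicate 3. On mouse means the log2 fold change was -1.12, with a 95% interval of -2.36 to 0.12 (limma adjusted p = 0.999, exact permutation p = 0.2). With the block the interval was -2.21 to -0.03 (limma adjusted p = 0.997), and without the block and KO replicate 3 the estimate was -0.55. The other genes listed as p53 targets, 17 that all passed the value filter, had a median of 0.01, with 10 higher and 7 lower in KO and none called.

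Birc5 (survivin), which serves both the mitotic spindle and cell survival, had the highest estimate, 0.71 on mouse means (limma adjusted p = 0.999). It had 10, 14 and 10 reads per 20 M in WT low-fat and 17, 44 and 21 in KO low-fat replicates, which did not overlap, and 18, 17 and 12 in WT high-fat and 33, 21 and 12 in KO high-fat replicates, which did. Its highest library, KO low-fat replicate 2, also had the highest summed neutrophil and monocyte markers, 213 reads per 20 M where the others had 14 to 166, and the highest lymphocyte sum, 124. The same library had the highest globin values, with 590 reads per 20 M of Hbb-bs where the others had 9 to 128 and 330 of Hba-a1 where the others had 2 to 72. The 4 erythroid markers tested had a median of 1.65 in KO against WT low-fat libraries, and none was called. The part of these cells in its level was not tested. Ccna2 had 84, 89 and 55 in WT low-fat and 81, 70 and 69 in KO low-fat replicates. In high-fat replicates it had 111, 78 and 88 in WT and 62, 61 and 54 in KO, which did not overlap, at a log2 fold change of -0.61 (limma adjusted p = 1).

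Cdkn2c had 50, 61 and 49 reads per 20 M in WT low-fat and 58, 60 and 64 in KO low-fat replicates, and 41, 62 and 64 in WT high-fat and 73, 70 and 81 in KO high-fat replicates. Its log2 fold change on mouse means was 0.32 (adjusted p = 0.999), higher in KO. The remaining extremes were Cdc20, the activator of the anaphase promoting complex, at -0.53, Ccnd2 at -0.45 and Top2a at 0.34, each with an adjusted p of 0.999. For Ccnd2 the estimate was -0.13 without WT replicate 1 and -0.03 without replicate 1 of both genotypes. Markers of endothelial, Kupffer and stellate cells also had lower estimates in KO on mouse means. These were 9 of 9 endothelial (median -0.55), 9 of 9 Kupffer (-0.46) and 7 of 8 stellate markers (-0.20). Of the 4 erythroid markers tested, 3 were higher in KO (median 0.97), and the 3 biliary markers had a median of -0.01. None of these markers was called, and the part of such cells in the Ccnd2 estimate was not tested. Cdc20 had 22, 13 and 11 reads per 20 M in WT low-fat, 21, 32 and 9 in WT high-fat, 16, 6 and 14 in KO low-fat and 17, 8 and 8 in KO high-fat replicates, which overlapped. The estimate for Top2a was -0.19 without WT replicate 3, its lowest mouse. After rescaling, the genotypes were fully separate for 2 of 38 members in low-fat libraries (Cdkn2c and Birc5, against 5.43% of all genes), for 4 in high-fat libraries (Cdk2, Cdkn2c, Mcm2 and Ccna2, against 5.17%) and for 4 on mouse means (Cdk2, Cdkn2c, Ccna2 and Birc5, against 6.36%). The interval for Ccnd1 on mouse means was -0.32 to 0.53 and that for Mki67 -0.94 to 1.36.

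**Figure D5:**
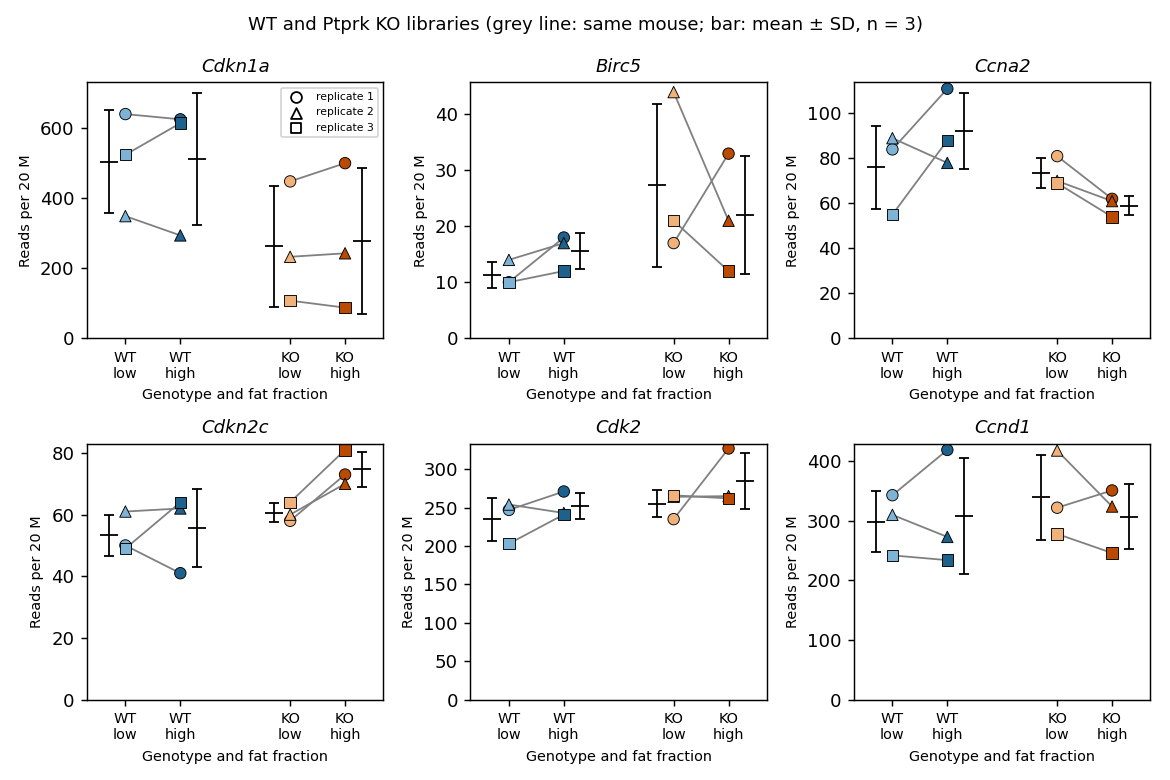
Reads per 20 M of 6 members in WT and KO libraries, drawn as in the plot of the fraction genes; bars give the mean ± SD of n = 3. The KO high-fat values of Ccna2 (54 to 62) lie below the WT high-fat values (78 to 111), and Cdkn1a overlaps between the genotypes.

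The other genes of the pathway, 138 that were found in the table and 121 that were tested, were counted in the same way. Between KO and WT none of them passed, with or without the block. In high-fat against low-fat libraries over all mice 1 was called without the block, Cit (citron kinase, which acts in cytokinesis), where 5.77% of all tested genes were. With the block 4 were called, where 11% were, all higher: Cit, Ncapd2 (a condensin subunit), Bax and Gadd45b. Bax and Gadd45b, genes of cell death and damage response, were taken from the list of p53 targets. Cit had 4, 10 and 2 reads per 20 M in WT low-fat, 38, 21 and 15 in WT high-fat, 0, 8 and 5 in KO low-fat and 28, 19 and 16 in KO high-fat replicates. It reached 10 in 1 low-fat and in 6 high-fat libraries, and so passed the value filter only through the fraction where it was high, as did 8 of the 121 genes. Its log2 fold change is therefore of a gene that the filter favoured: it rose by 1.98 on the log2 scale, with an SE of 0.42 (limma adjusted p = 0.0185, and 0.0228 with the block). Ncapd2, at 313 to 475 in low-fat and 404 to 624 reads per 20 M in high-fat libraries, changed by 0.40 (adjusted p = 0.0379 with the block), Bax by 0.25 (0.0365) and Gadd45b by 0.85 (0.0477). By role, the medians were 0.01 for 30 genes of origin licensing and DNA synthesis, 0.08 for 41 of mitosis and cytokinesis, -0.08 for 13 of the E2F and MuvB complexes, 0.01 for 17 of G1 and the kinases and 0.11 for 17 listed as p53 targets, beside -0.02 over all tested genes. Without genes that passed the filter through 1 fraction only, the 113 remaining had a median of 0.03, beside -0.04.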

How the data were processed

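The authors deposited 1 table of values for 12 libraries; its column names hold the library names of the labels. By the table's name and its values, the deposited numbers are a score in this sense: gene read counts scaled to 20 M per library and rounded up to whole numbers. The submitters' processing notes list the build mm9; aligner, counter, annotation and strandedness are not given in the sources used here. Depth was estimated from the pattern of whole numbers that rounding leaves. The genes reaching 10 in 3 or more libraries were rescaled by the trimmed mean of M values over these genes, transformed as log2(value + 2), which understates changes of low genes, and fitted with limma 3.58.1 in R 4.3.3 (4 group means over 12 libraries, trend). KO against WT over both fractions used the mean of each mouse's libraries. P-values are two-sided and adjusted by Benjamini-Hochberg over all 16563 genes; the threshold was 0.05. Fits were tested on simulated data. The members, the lists and the rule for described genes (called members, the 3 highest and 3 lowest changes between fractions and between genotypes, Mki67, Top2a, Ccnd1 and Cdkn1a) were chosen with earlier results of these data known; Mcm3, Cdkn1c, Ccna2 and others outside it were described after their values were seen.

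The low-fat and high-fat library of a replicate number carry 1 mouse name in the labels, the source of the pairing of fractions; deviations of these libraries correlated at 0.469 to 0.582 in WT and -0.00874 to 0.46 in KO. Between genotypes numbers are shared by different mice; the correlation was 0.251 to 0.396 in low-fat and -0.171 to 0.49 in high-fat libraries. The block is a term for each mouse, or for each number between genotypes. Replicate pairs differed beyond read sampling (chi-square per gene 20.5 to 55.4 over 12 pairs). Exon lengths and overlaps are from GENCODE M21, which held 99.56% of the identifiers; promoters are from RefSeq. By M21, 6 members overlap a gene on their own strand and 18 a gene on the opposite strand, so shared reads are possible. Alternatives are given in the closing section.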

Additional observations from a re-analysis of the deposited data

How the results depend on the processing

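The counts of members called were 0 between genotypes and 0 for the interaction under each alternative run. Within a genotype they were 0 except with the block and without KO replicate 1 (2 in WT, Ccnd2 and E2f8), and with the block and without replicate 1 of WT and KO (1 in KO, Ccnd2). Over all mice, against 1 call between fractions, the replicate block, where the pairing comes from the mouse, gave 4. The block gave 3 with a pseudocount of 10, with median-of-ratios scaling and with the deposited scaling alone (Ccnd2, Cdk6 and E2f8), and 3 with scaling over all genes (Ccnd2, E2f8 and Rrm2). The block changed no other count of members called at the adjusted threshold. Leaving out 1 library gave 0 to 2 calls without the block, and leaving out 1 mouse gave 0 to 5 with it (0 without WT replicate 2, 5 without KO replicate 2, 2 without KO replicate 3); both replicate 1 high-fat libraries left out gave 0. The alternatives with the block beside another choice, scaling over all genes and the omission of replicate 1 were chosen after seeing the data.

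Of 483 alternative values of 18 named changes, 457 kept their direction and side of the threshold. In the main fit, without the block, only Ccnd2 between fractions was called, so for every other change this means staying uncalled. Of the remaining alternative values, 18 gained a call, 3 lost it and 5 reversed direction. The log2 fold change of Ccnd2 between fractions ranged from 1.05 to 1.73 (adjusted p 0.00488 to 0.0647), that of Cdk6 from 0.24 to 0.45 (0.0256 to 0.395), of E2f8 from 0.30 to 0.64 (0.0115 to 0.657) and of Rrm2 from -0.48 to -0.19 (0.0454 to 0.743). With 1 library left out, Cdkn1a between fractions ranged from -0.34 to 0.23 (-0.42 without both replicate 1 high-fat libraries). With 1 mouse left out, Top2a between genotypes, on mouse means, ranged from -0.19 to 0.71. With a value of at least 50 asked for, Foxm1, Top2a, Ccne1, E2f7, Cdc20 and Birc5 give no value. The cause of these changes was not tested.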
